A study of Arabidopsis thaliana with 15 samples.

Results

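The TREX complex and the ALY export adaptors were followed here across the RNA-seq libraries of a study of the Arabidopsis thaliana mutant eds4. The set held 10 genes, chosen by locus and name and not by any measured value, of 33602 loci in the deposited count tables. It comprised the adaptors ALY1 (AT5G59950), ALY2 (AT5G02530), ALY3 (AT1G66260) and ALY4 (AT5G37720), and the THO subunits HPR1 (AT5G09860), THO2 (AT1G24706) and TEX1 (AT5G56130). It was completed by the RNA helicases UAP56A (AT5G11170) and UAP56B (AT5G11200) and by MOS11 (AT5G02770). All 10 loci were listed in every table, and all 10 passed the filter on low counts in every fit.

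The mutant, labelled eds4 -/-, and the wild type Col-0 were grown together as seedlings to an age of 2 weeks, under constant white light (50 µmol of photons per square metre and second) and at 22 °C. The EDS4 locus (AT5G51200) is known to code for the nucleoporin NUP205 of the pore scaffold, which is background and not a result; the allele and the background of eds4 are not given in the labels. A profiling experiment held whole eds4 seedlings (n = 3) and whole wild type seedlings (n = 4), extracted with a column kit. A distribution experiment, extracted with phenol, held nuclei collected by fluorescence-activated sorting from eds4 (n = 2) and wild type (n = 2), and whole seedlings of eds4 (n = 2) and wild type (n = 2), called total RNA here. The labels name the molecule of the nuclei nuclear RNA and that of the other libraries polyA RNA, while the library protocol describes polyA purification for all. The labels do not say whether replicates were separate cultures, so p-values measure the spread between these libraries, part of which may be technical.

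Messenger RNA leaves the plant nucleus as a particle coated with proteins. The THO core binds the nascent transcript and brings in the DEAD-box helicase UAP56, and together with adaptors such as the ALY proteins and MOS11 they form TREX, the transcription and export complex. UAP56 helps to load the adaptors, which act in the export of the transcript through the pore. In Arabidopsis, HPR1 and TEX1 are also known for roles in small RNA production, and MOS11 was found as a gene required for the autoimmunity of the snc1 mutant. These genes were measured here as transcripts, so their values are levels of the mRNAs that encode the export machinery and not measures of export.

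The UAP56 genes bear on how the counts are read, because a read from a stretch they share cannot be placed by its sequence. They lie in tandem on chromosome 5 with 10196 bases between them, UAP56A at chr5:3553117-3556977 and UAP56B at chr5:3567174-3571015, both on the plus strand (TAIR10, as deposited). The longest coding sequence of UAP56A in the RefSeq annotation of TAIR10.1 has 1284 bases. A coding sequence of UAP56B with that same length was picked to match it. Of these bases 1248 were identical and 36 differed (97.2% identity). All annotated coding stretches of UAP56B together cover 1502 bases, and its coding sequences of other lengths were not compared. Of all stretches of 32 bases within exons, 34.9% of those of UAP56A also occurred in UAP56B, and 34.3% of those of UAP56B also occurred in UAP56A. The longest shared run had 129 bases and is printed to show how long such a stretch can be, at chr5:3554281-3554409 in UAP56A and chr5:3568322-3568450 in UAP56B, plus strand, TAIR10.1. It lies in the coding sequence of both genes, and its capitals mark the codons of motif I, the ATP-binding Walker A motif of DEAD-box helicases.
UAP56A and UAP56B: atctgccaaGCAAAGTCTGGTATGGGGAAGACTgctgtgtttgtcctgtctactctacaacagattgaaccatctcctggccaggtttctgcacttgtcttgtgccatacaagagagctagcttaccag
The next lines show 60 coding bases, positions 1210 to 1269 of each coding sequence, at chr5:3556479-3556538 in UAP56A and chr5:3570520-3570579 in UAP56B, plus strand, TAIR10.1. They were chosen because they hold 7 mismatches, which are in capitals and can tell the copies apart.
UAP56A: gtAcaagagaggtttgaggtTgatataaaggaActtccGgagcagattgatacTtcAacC
UAP56B: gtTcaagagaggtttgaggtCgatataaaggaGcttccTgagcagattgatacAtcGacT
The way the authors' counting treated reads with several matches is not given in the sources used here, so counts of UAP56A and UAP56B taken separately are uncertain, and their sum is given beside the separate values below.

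The ALY genes were less alike. Aligned coding bases were identical at 80.8% between ALY3 and ALY4 and at 70.8% between ALY1 and ALY2, and at 61.4% to 65.8% in the other pairs. No stretch of 32 exon bases of ALY2, ALY3, ALY4, HPR1 or MOS11 occurred elsewhere in the genome. In ALY1 4.48% and in TEX1 4.81% of such stretches did, and in THO2 0.0178%. The deposited tables list no overlapping locus for any of the 10 genes. RefSeq lists ALY4 under ALWAYS EARLY 4, a name also used for a family of chromatin proteins, and describes ALY1, ALY2 and ALY3 as RNA-binding proteins with an RRM motif.

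Library totals were 39474734 to 45343833 counts in eds4 seedlings and 37277300 to 51059295 in wild type seedlings. They were 12393243 to 21786898 in eds4 nuclei, 15291096 to 19594301 in wild type nuclei, 22805360 to 31586867 in eds4 total RNA and 31168662 to 31745372 in wild type total RNA. The 10 genes were counted well at these depths, with 93 counts (TEX1 in eds4 nuclei replicate 2) to 15417 counts (MOS11) over 150 values. Nuclei of eds4 replicate 2 had the lowest total and counts at 20779 loci, where the remaining libraries had counts at 22801 to 24555. Nuclear rRNA took at most 1.59% of the counts of eds4 nuclei, against 2.79% and 11.2% of those of wild type nuclei. The label of whole seedlings was checked against markers: 4 leaf mesophyll genes were high throughout, at 21223 to 31849 CPM in sum in the profiling experiment and 56206 to 60854 CPM in total RNA. The sum of 4 root genes was 128 to 157 CPM in eds4 seedlings and 93.1 to 131 CPM in wild type seedlings, but 2.28 and 9.91 CPM in eds4 total RNA and 3.84 and 6.61 CPM in wild type total RNA. Most of the seedlings' sum was PHT1;1, with 105 to 143 CPM in eds4 seedlings and 77.7 to 116 CPM in wild type seedlings, against at most 2.19 CPM in eds4 total RNA and 1.35 CPM in wild type total RNA. CASP1 had 9.88 to 15.7 CPM in eds4 seedlings, 5.47 to 20.2 CPM in wild type seedlings, 1.61 to 6.36 CPM in eds4 total RNA and 3.15 to 4.52 CPM in wild type total RNA, and in nuclei 6.06 to 14.0 CPM in eds4 and 26.9 to 30.3 CPM in the wild type. The root sum was 7.21 and 16.3 CPM in nuclei of eds4 and 32.4 and 33.9 CPM in nuclei of the wild type, the leaf sum 8442 to 14065 CPM in nuclei, and 3 seed and pollen genes summed to at most 4.40 CPM. The part of root content, rRNA and depth in the results below was not tested. In such bulk libraries, fewer cells of a type and less RNA per cell cannot be told apart.

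EDS4 itself had 31.9, 31.9 and 42.2 CPM in eds4 seedlings, against 73.3, 72.2, 84.3 and 63.8 CPM in wild type seedlings, a log2 difference of -1.05 (adjusted p = 0.0101, edgeR). The call was lost without eds4 seedlings replicate 1 (adjusted p = 0.0713) or replicate 2 (0.0679). In total RNA it had 41.3 and 29.1 CPM in eds4, against 95.8 and 81.1 CPM in wild type; the log2 difference of -1.33 (SE 0.26) did not pass in edgeR's test (adjusted p = 1) but did without the filter on low counts (0.00480), with DESeq2 (0.0195) and with all 11 whole-seedling libraries (0.0320). In nuclei its transcript had 59.6 and 62.5 CPM in eds4 and 48.5 and 65.6 CPM in wild type, so there its level does not check the labels.

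Levels are given as CPM, a gene's counts relative to the library size, with library sizes adjusted within each experiment by the TMM method (trimmed mean of M values). This scaling sets the typical gene to no change, so a general shift of RNA between nucleus and cytoplasm would not be seen. Per kilobase of the authors' effective gene length, the helicases led in seedlings and the THO core came last. UAP56A had 153 ± 8.22 CPM per kb in eds4 seedlings and 130 ± 7.61 CPM per kb in wild type seedlings, and UAP56B 114 ± 2.69 and 93.0 ± 7.07 CPM per kb in the same groups (SD, n = 3 and n = 4). MOS11 (79.1 ± 2.17 CPM per kb in eds4, 74.7 ± 2.71 in wild type) and ALY3 (77.6 ± 6.42 in eds4, 75.8 ± 1.87 in wild type) followed, and their libraries overlapped in both genotypes. ALY2, ALY1 and ALY4 came next, ALY2 with 50.4 ± 3.53 CPM per kb in eds4 seedlings and 49.2 ± 1.44 in wild type seedlings. ALY1 and ALY4 were separate in eds4 seedlings (42.2 ± 1.77 and 33.4 ± 1.75 CPM per kb) but overlapped in wild type seedlings (29.8 ± 2.94 and 29.3 ± 1.78 CPM per kb). HPR1, TEX1 and THO2 had 8.90 to 12.3 CPM per kb in eds4 seedlings and 9.66 to 12.3 in wild type seedlings, with HPR1 and TEX1 overlapping in both. The highest and lowest of the 10 genes were 17.2-fold apart in eds4 seedlings and 13.4-fold apart in wild type seedlings.

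The order was another in nuclei. MOS11 led in eds4 nuclei with 357 ± 11.7 CPM per kb, followed by ALY3 with 243 ± 99.7 and UAP56A with 173 ± 0.570, the last 2 overlapping (SD, n = 2). ALY3 led in wild type nuclei with 357 ± 52.1 CPM per kb, followed by UAP56A with 203 ± 11.8 and MOS11 with 180 ± 48.3, the last 2 again overlapping. UAP56B, in second place in seedlings of both genotypes, had 49.6 ± 0.663 CPM per kb in nuclei of eds4 and 55.1 ± 9.79 in nuclei of the wild type. In total RNA of both genotypes UAP56A had the highest mean (86.0 and 107 CPM per kb in the eds4 libraries, 86.5 and 91.5 in those of the wild type) and TEX1 had the lowest mean (7.07 and 8.06 in eds4, 6.29 and 8.63 in wild type). In eds4 total RNA UAP56A overlapped ALY3, which had 96.0 and 57.9 CPM per kb there. TEX1 overlapped THO2 in total RNA of both genotypes, where THO2 had 8.22 and 7.11 CPM per kb in eds4 and 9.33 and 8.01 in wild type. The lowest 3 genes were HPR1, THO2 and TEX1 in all 6 groups.

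**Figure D1:**
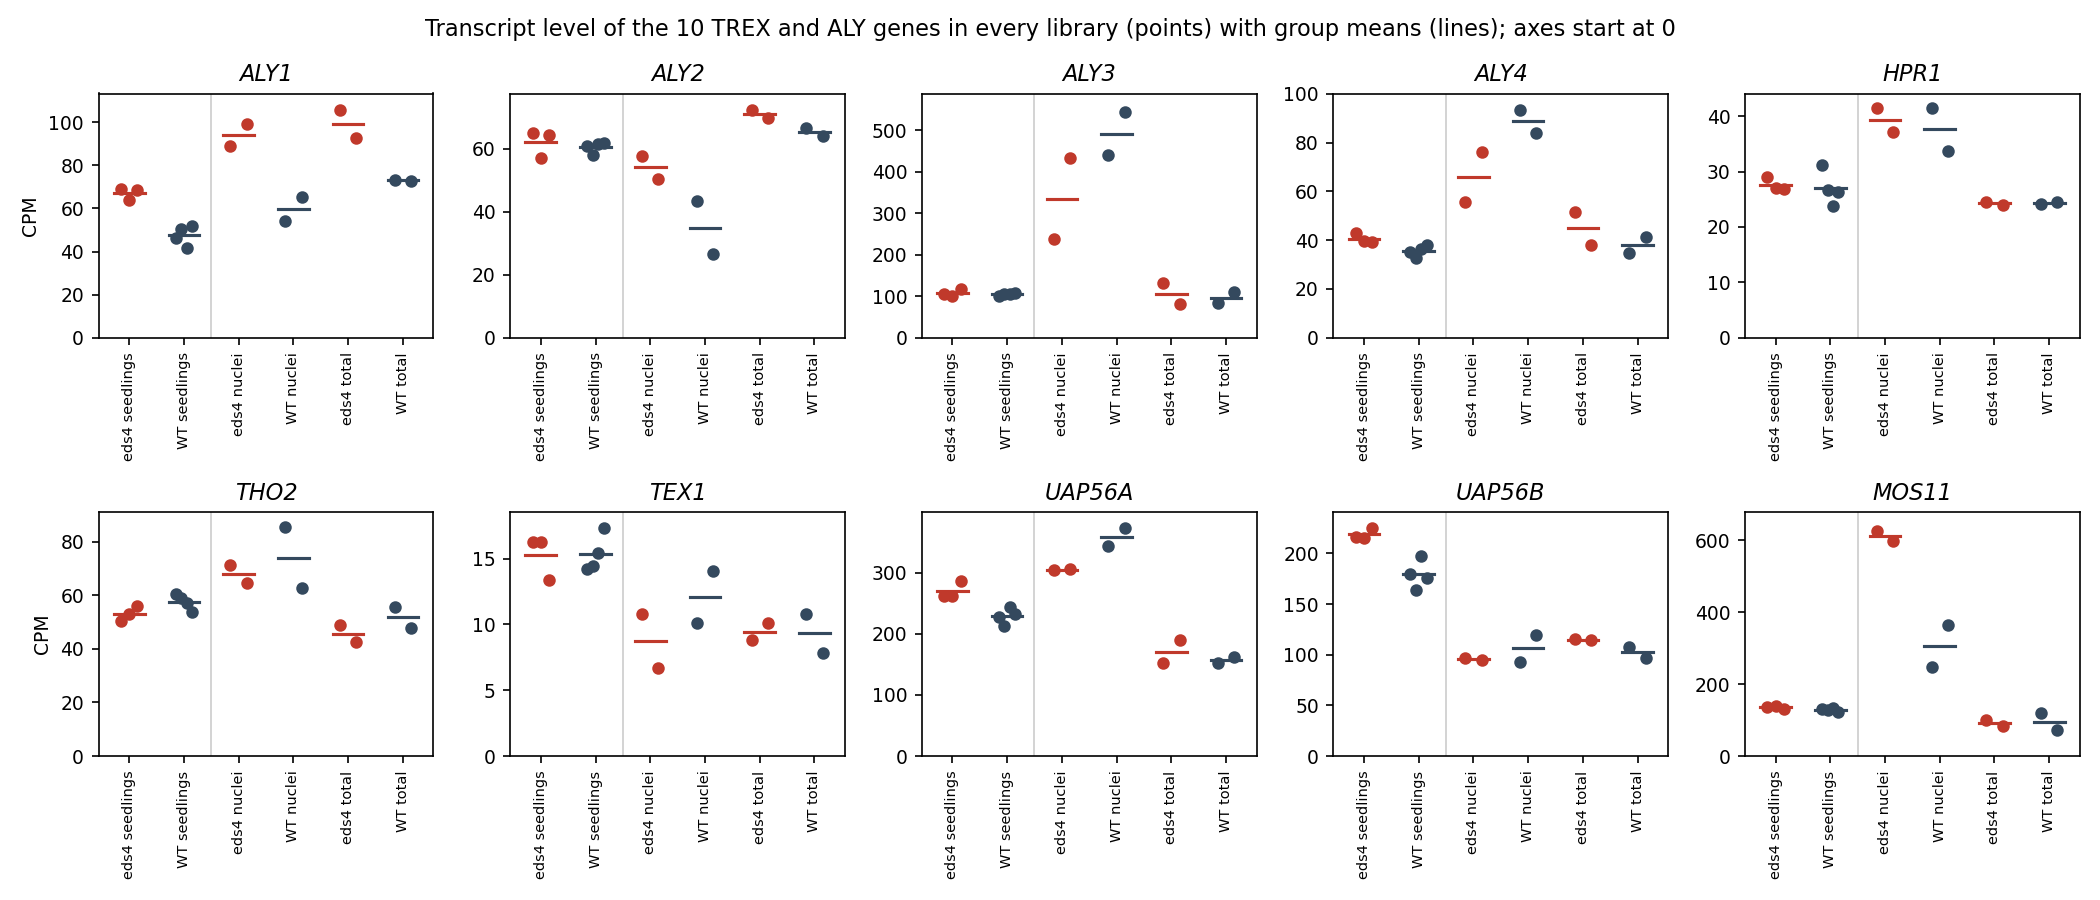
Transcript levels (CPM, TMM-scaled within each experiment) of the 10 genes in each of the 15 libraries, with eds4 in red, wild type (WT) in dark blue, points for libraries and lines for group means; the vertical line parts the profiling experiment from the distribution experiment. ALY3, ALY4, HPR1, THO2, UAP56A and MOS11 had higher group means in nuclei than in total RNA in both genotypes. ALY1 was higher in eds4 than in wild type in every pair of groups.

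The comparison of eds4 seedlings with wild type seedlings addressed which transcripts differ between these groups. Of the 10 genes 1 passed, ALY1, which rose 1.42-fold in eds4 seedlings. No THO subunit, no helicase, no other ALY gene and not MOS11 passed. Over all 22202 genes tested with edgeR's quasi-likelihood test, 1.34% passed an adjusted p of 0.05, with 0.757% higher and 0.581% lower. The median log2 difference of the 10 genes was 0.06, against 8.55e-05 over all genes tested.

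Among the adaptors, ALY1 had 69.3, 64.1 and 68.5 CPM in eds4 seedlings, against 46.3, 50.4, 41.4 and 51.9 CPM in wild type seedlings. Every eds4 library lay above every wild type library. The log2 difference was 0.50 (SE 0.09, 95% interval 0.30 to 0.70, adjusted p = 0.0393). The adjusted p was close to the threshold, and it was 0.0560 to 0.171 when any 1 of the 7 libraries was left out, with log2 differences of 0.44 to 0.55. ALY4 had 43.1, 39.5 and 39.3 CPM in eds4 seedlings and 35.2, 32.8, 36.3 and 38.0 CPM in wild type seedlings; the groups did not overlap, but the log2 difference of 0.19 (SE 0.07) did not pass (adjusted p = 0.261). ALY2 had 57.1 to 64.9 CPM in eds4 seedlings and 58.0 to 62.0 CPM in wild type seedlings, and ALY3 had 99.6 to 117 CPM in eds4 seedlings and 101 to 107 CPM in wild type seedlings. Both overlapped, with log2 differences of 0.04 (95% interval -0.13 to 0.20) for ALY2 and 0.03 (-0.14 to 0.21) for ALY3.

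The helicases were the other genes whose groups did not overlap. UAP56B had 217, 216 and 225 CPM in eds4 seedlings, against 180, 164, 197 and 176 CPM in wild type seedlings (log2 difference 0.29, SE 0.08, adjusted p = 0.137). UAP56A had 263, 261 and 287 CPM in eds4 seedlings, against 228, 212, 245 and 232 CPM in wild type seedlings (0.24, SE 0.08, adjusted p = 0.200). Neither passed, and their summed counts did not pass either (0.26, SE 0.08, adjusted p = 0.181). DESeq2, run as an alternative, called UAP56B (adjusted p = 0.0280) besides ALY1, among 1011 genes. In all, 4 of the 10 genes were higher in eds4 seedlings without overlap and 0 were lower; of all genes tested, 8.71% were higher without overlap and 6.93% lower.

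Of the THO core, HPR1 had 26.8 to 29.1 CPM in eds4 seedlings and 23.8 to 31.1 CPM in wild type seedlings, THO2 had 50.4 to 55.9 and 53.8 to 60.5 CPM, and TEX1 had 13.3 to 16.3 and 14.2 to 17.3 CPM in the same groups. The groups overlapped for each of the 3 genes. The log2 differences were 0.03 (95% interval -0.19 to 0.25) for HPR1, -0.12 (-0.28 to 0.04) for THO2 and -0.00346 (-0.25 to 0.24) for TEX1. MOS11 had 131 to 138 CPM in eds4 seedlings and 121 to 132 CPM in wild type seedlings, which overlapped (0.08, 95% interval -0.07 to 0.23).

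The same genotypes were compared in total RNA of the distribution experiment, where 0 of the 10 genes passed in edgeR's test and 0 had an unadjusted p under 0.05. Over all 21484 genes, 0.00465% passed (1 gene), 605 had an unadjusted p under 0.05 (2.82%), and DESeq2 called 16, none of them among the 10. ALY1 had 106 and 92.8 CPM in eds4 total RNA, against 73.3 and 72.9 CPM in wild type total RNA. These libraries did not overlap, and the log2 difference was 0.44 (SE 0.22, 95% interval -0.06 to 0.94). The other 9 genes had log2 differences of -0.18 (THO2) to 0.24 (ALY4). Of the 10 genes 3 were higher without overlap (ALY1, ALY2 and UAP56B) and 0 lower, where 17.2% of all genes were higher without overlap and 20.7% lower. The genotype effect of each experiment was set against the other by fitting the 11 whole-seedling libraries at once. For ALY1 the difference of the effects was 0.03 (SE 0.17, 95% interval -0.33 to 0.40), and for the 10 genes it was -0.14 to 0.10. No member passed, where 0.00888% of 22525 genes did (2 genes).

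In sorted nuclei, too, 0 of the 10 genes passed between eds4 and wild type, where 0.363% of 21484 genes passed (78 genes). The differences, none of which passed, went both ways. MOS11, ALY1 and ALY2 were higher in eds4 nuclei without overlap, with unadjusted p-values under 0.05 in edgeR's test. ALY3, ALY4 and UAP56A were lower without overlap, with unadjusted p-values of 0.150, 0.124 and 0.352. Of all genes tested, 19.6% were higher without overlap, 18.8% were lower without overlap and 14.1% had an unadjusted p under 0.05.

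MOS11 had 624 and 596 CPM in eds4 nuclei, against 249 and 365 CPM in wild type nuclei. Its log2 difference of 0.99 was the largest of the 10 genes in this comparison (SE 0.31, 95% interval 0.30 to 1.69, adjusted p = 0.196). It passed without the filter on low counts (adjusted p = 0.0427) and in no other alternative run (0.0769 to 0.431). ALY1 had 89.1 and 99.2 CPM in eds4 nuclei, against 54.2 and 65.4 CPM in wild type nuclei (0.65, SE 0.22, adjusted p = 0.235). ALY2 had 57.7 and 50.5 CPM in eds4 nuclei, against 43.3 and 26.5 CPM in wild type nuclei (0.63, SE 0.26, adjusted p = 0.315). For both adaptors the eds4 libraries lay above both wild type libraries, but with 1 library left out the difference of ALY2 was 0.26 to 1.03.

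ALY3 had 238 and 432 CPM in eds4 nuclei, against 441 and 542 CPM in wild type nuclei (-0.55, SE 0.36, adjusted p = 0.524). Its 2 libraries of eds4 nuclei lay further apart than the means of the groups, which were 335 CPM in eds4 nuclei and 492 CPM in wild type nuclei, and with 1 library left out the log2 difference was -1.04 to -0.19. ALY4 had 55.5 and 76.2 CPM in eds4 nuclei and 93.3 and 84.1 CPM in wild type nuclei (-0.43, SE 0.26), and UAP56A had 305 and 306 CPM in eds4 nuclei and 344 and 373 CPM in wild type nuclei (-0.23, SE 0.24). The remaining 4 genes overlapped, with log2 differences of 0.06 (HPR1), -0.13 (THO2), -0.15 (UAP56B) and -0.46 (TEX1).

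**Figure D2:**
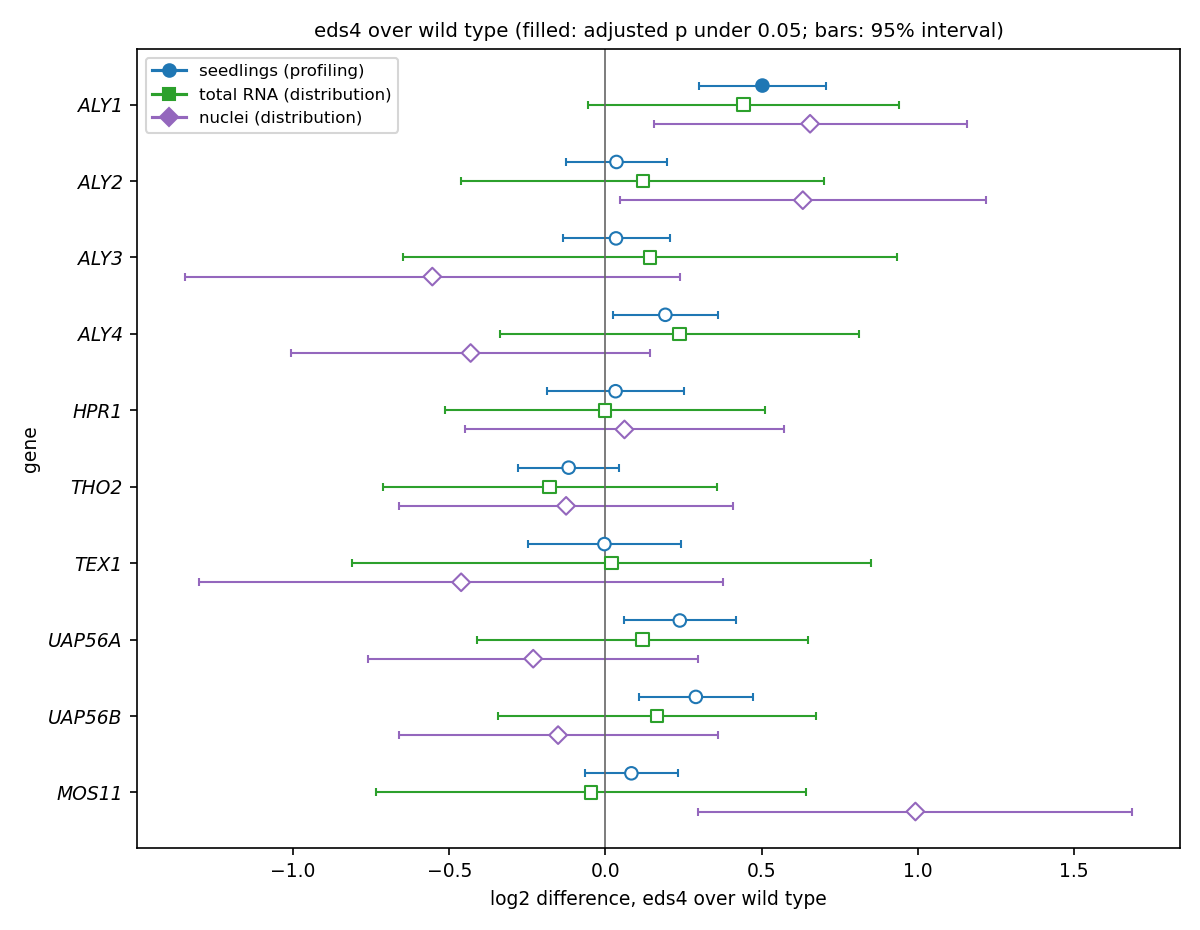
Log2 difference of eds4 over wild type for each gene in whole seedlings of the profiling experiment (circles), total RNA (squares) and nuclei (diamonds) of the distribution experiment, with 95% intervals from edgeR; filled symbols have an adjusted p under 0.05. ALY1 in seedlings (0.50) is the filled symbol, and its estimates in total RNA (0.44) and nuclei (0.65) lie on the same side of 0; MOS11 lies at 0.99 in nuclei and at 0.08 and -0.05 in the whole-seedling comparisons.

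Wild type nuclei were next compared with wild type total RNA, which came from whole seedlings. Whether the sorted nuclei and the whole seedlings sampled the same cells was not tested, so the differences are not a split within a cell. Of the 10 genes 5 passed. ALY3, MOS11, ALY4 and UAP56A were higher in nuclei and ALY2 was lower, which split the ALY adaptors. Of 21484 genes tested 30.6% passed, with 15.1% higher in nuclei and 15.6% lower. Without overlap, 6 of the 10 genes were higher and 2 lower, where 33.1% of all genes were higher and 35.4% lower. The median log2 difference was 0.57 over the 10 genes and -0.00338 over all genes.

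ALY3 had 441 and 542 CPM in wild type nuclei, against 82.9 and 109 CPM in wild type total RNA. It was 5.12-fold higher in nuclei (log2 difference 2.36, SE 0.37, adjusted p = 0.00153), the largest difference of the 10 genes here. Its closest relative by coding sequence, ALY4, had 93.3 and 84.1 CPM in wild type nuclei, against 34.8 and 41.3 CPM in wild type total RNA (1.22, SE 0.26, adjusted p = 0.00657). ALY2 went the other way, with 43.3 and 26.5 CPM in wild type nuclei, against 66.7 and 64.1 CPM in wild type total RNA (-0.90, SE 0.26, adjusted p = 0.0270). ALY1 had 54.2 and 65.4 CPM in wild type nuclei, against 73.3 and 72.9 CPM in wild type total RNA, and did not pass (-0.29, 95% interval -0.79 to 0.21).

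Of the helicases, UAP56A had 344 and 373 CPM in wild type nuclei, against 153 and 162 CPM in wild type total RNA (1.19, SE 0.24, adjusted p = 0.00510). UAP56B had 92.9 and 120 CPM in wild type nuclei and 108 and 97.1 CPM in wild type total RNA, and the libraries overlapped (0.05, 95% interval -0.46 to 0.56). Their summed counts, an alternative chosen after the data were seen, passed with a log2 difference of 0.84 (SE 0.24, adjusted p = 0.0244). MOS11 had 249 and 365 CPM in wild type nuclei, against 119 and 72.4 CPM in wild type total RNA (1.68, SE 0.32, adjusted p = 0.00360).

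The THO core did not pass. HPR1 had 41.5 and 33.8 CPM in wild type nuclei, against 24.1 and 24.5 CPM in wild type total RNA (0.63, SE 0.23, adjusted p = 0.0616), and THO2 had 85.4 and 62.5 CPM in nuclei, against 55.7 and 47.8 CPM in total RNA (0.52, SE 0.24, adjusted p = 0.131). Both were higher in nuclei without overlap. TEX1, with the lowest level of the 10 genes, had 10.1 and 14.0 CPM in wild type nuclei and 10.8 and 7.86 CPM in wild type total RNA, which overlapped (0.37, 95% interval -0.46 to 1.20). The calls of ALY3 and MOS11 held in all 10 alternatives. Without wild type total RNA replicate 1, the adjusted p was 0.0577 for UAP56A, 0.0727 for ALY4 and 0.114 for ALY2, and 2 of the 10 genes passed. ALY2 also lost its call without wild type total RNA replicate 2 (0.0928) and without wild type nuclei replicate 2 (0.138, log2 difference -0.60).

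In eds4, nuclei against total RNA gave 4 genes that passed, all higher in nuclei: MOS11, ALY3, UAP56A and HPR1. Of all genes 29.6% passed, with 15.6% higher and 14% lower. Without overlap, 6 of the 10 genes were higher and 2 lower, where 33.5% of all genes were higher and 32.1% lower. The median log2 difference was 0.56 over the 10 genes and 0.09 over all genes. MOS11 had 624 and 596 CPM in eds4 nuclei, against 101 and 83.7 CPM in eds4 total RNA. It was 6.60-fold higher in nuclei, the largest difference here (2.72, SE 0.33, adjusted p = 0.000496), and it passed in all 10 alternatives. ALY3 had 238 and 432 CPM in eds4 nuclei, against 132 and 79.6 CPM in eds4 total RNA (1.66, SE 0.36, adjusted p = 0.00735); without eds4 total RNA replicate 2 the adjusted p was 0.0617.

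UAP56A had 305 and 306 CPM in eds4 nuclei, against 152 and 190 CPM in eds4 total RNA (0.84, SE 0.24, adjusted p = 0.0249). HPR1 had 41.4 and 37.1 CPM in eds4 nuclei, against 24.5 and 24.0 CPM in eds4 total RNA (0.70, SE 0.23, adjusted p = 0.0455). Both genes were higher in nuclei without overlap, and both calls were weak. Of 10 alternatives, UAP56A passed in 5 and HPR1 in 1. With any 1 of the 4 libraries left out, the log2 difference was 0.67 to 0.99 for UAP56A and 0.60 to 0.76 for HPR1. UAP56B had 96.5 and 94.7 CPM in eds4 nuclei, against 115 and 115 CPM in eds4 total RNA (-0.27, 95% interval -0.78 to 0.24), and the summed UAP56 counts did not pass (0.49, SE 0.24, adjusted p = 0.151).

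The other adaptors did not pass in eds4. ALY4 had 55.5 and 76.2 CPM in eds4 nuclei, against 51.6 and 38.0 CPM in eds4 total RNA (0.55, SE 0.26, adjusted p = 0.136). ALY2 had 57.7 and 50.5 CPM in eds4 nuclei, against 72.3 and 69.7 CPM in eds4 total RNA (-0.39, adjusted p = 0.292), and ALY1 had 89.1 and 99.2 CPM in nuclei and 106 and 92.8 CPM in total RNA (-0.08, adjusted p = 0.827). ALY2 was lower in nuclei without overlap, and ALY1 overlapped. THO2 had 71.1 and 64.5 CPM in eds4 nuclei, against 49.0 and 42.4 CPM in eds4 total RNA (0.57, adjusted p = 0.103), and TEX1 overlapped (-0.11, adjusted p = 0.852).

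**Figure D3:**
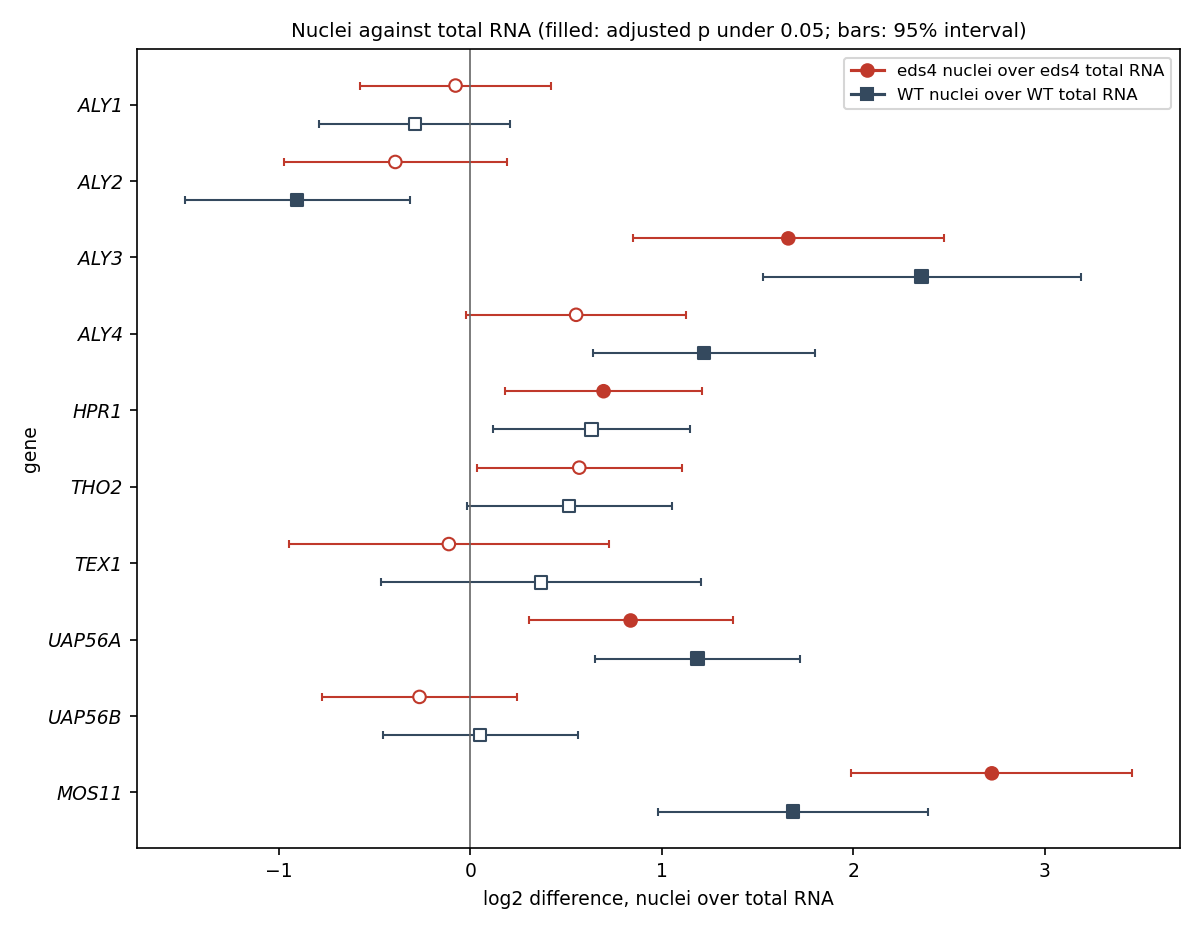
Log2 difference of nuclei over total RNA for each gene in eds4 (red circles) and wild type (dark blue squares), with 95% intervals from edgeR; filled symbols have an adjusted p under 0.05. ALY3, UAP56A and MOS11 are filled and above 0 in both genotypes, ALY1 and ALY2 lie below 0 in both, and the intervals of eds4 and wild type overlap for each of the 10 genes.

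Whether these nuclear-to-total ratios changed in eds4 was tested as the difference between the genotypes' ratios in the fit of all 8 libraries. None of the 10 genes passed, nor did any of 21484 genes (0%). At an unadjusted p under 0.05 there were 1252 genes (5.83%), among them 1 of the 10, and DESeq2 called 39, none of them among the 10. MOS11 had a difference of 1.04 (SE 0.44, 95% interval 0.06 to 2.01, unadjusted p = 0.0393, adjusted p = 0.827). The ratios of ALY3 (-0.70, SE 0.50) and ALY4 (-0.67, SE 0.36) were lower in eds4 and that of ALY2 was higher (0.51, SE 0.37), with intervals that held 0. With 1 library left out these differences were 0.65 to 1.36 for MOS11, -1.18 to -0.28 for ALY3, -0.91 to -0.43 for ALY4 and 0.12 to 0.91 for ALY2. A gene past the threshold in 1 genotype only, such as ALY2, ALY4 or HPR1, was therefore not shown to differ between them.

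Whether reads in introns were counted is not given in the sources used here, and such reads could be more frequent in nuclei. The share of the locus outside the authors' effective length was 58.0% for ALY3, 59.1% for ALY4 and 54.2% for UAP56A, which were higher in wild type nuclei, and 31.5% for ALY2 and 17.4% for ALY1. It was 23.2% for MOS11, also higher in nuclei, and 49.8% for UAP56B, which did not differ detectably. The THO genes had 48.5% (HPR1), 56.2% (THO2) and 52.1% (TEX1). Over all genes, the median log2 difference of wild type nuclei over total RNA was -0.07 where this share was up to 25%, 0.05 where it was 25% to 50%, and 0.02 above that; for eds4 these medians were 0.12, 0.08 and 0.04. The effective length equalled the joined RefSeq exons at 10379 of 32827 loci, and at each of the 10 genes it was shorter. For ALY4 it was 1215 bases against 1358 exon bases, and for THO2 5963 against 6616. The share outside it is therefore only a rough measure of intron content. The part of intron reads in the results was not tested.

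The makeup of the ALY family shows the same values as shares. Each share is a gene's counts per base of effective length in percent of the sum over the 4 ALY genes in that library; the shares were chosen after the values were seen. ALY3 made up 59.6% ± 8.21 of the family in nuclei of eds4 and 71.8% ± 4.41 in nuclei of the wild type, against 32.4% ± 5.70 in eds4 total RNA and 34.7% ± 4.00 in wild type total RNA (SD, n = 2 each). ALY1 made up 15.2% ± 3.13 in nuclei of eds4 and 7.55% ± 0.355 in nuclei of the wild type, against 26.9% ± 2.36 in eds4 total RNA and 23.0% ± 1.87 in wild type total RNA. ALY4 stayed between 13.1% and 17.1% in all 15 libraries. Within the UAP56 pair, UAP56A had 77.7% ± 0.289 in nuclei of eds4 and 78.7% ± 2.01 in nuclei of the wild type, against 61.7% ± 3.78 in eds4 total RNA and 62.6% ± 2.67 in wild type total RNA.

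In seedlings ALY1 made up 20.8% ± 0.427 of the family in eds4 (n = 3) and 16.2% ± 1.35 in wild type (n = 4), and ALY3 made up 38.1% ± 1.74 in eds4 and 41.2% ± 0.736 in wild type. An exact two-sided permutation test over libraries gave p = 0.0286 for each of these differences, the smallest it can give. Shares within a library depend on each other, so a lower share of ALY3 does not mean a lower level. Its level overlapped between the genotypes, with a log2 difference of 0.03. Between nuclei and total RNA, permuted within genotype, the exact test gave p = 0.0556 for ALY1, ALY2, ALY3 and UAP56A, again the smallest possible. After Benjamini-Hochberg adjustment over the 10 tests of shares, the lowest value was 0.0816, so none passed. Given the smallest possible p-values, none of the 10 tests could have passed after adjustment, in seedlings or in nuclei. These tests therefore decide nothing about the shares.

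**Figure D4:**
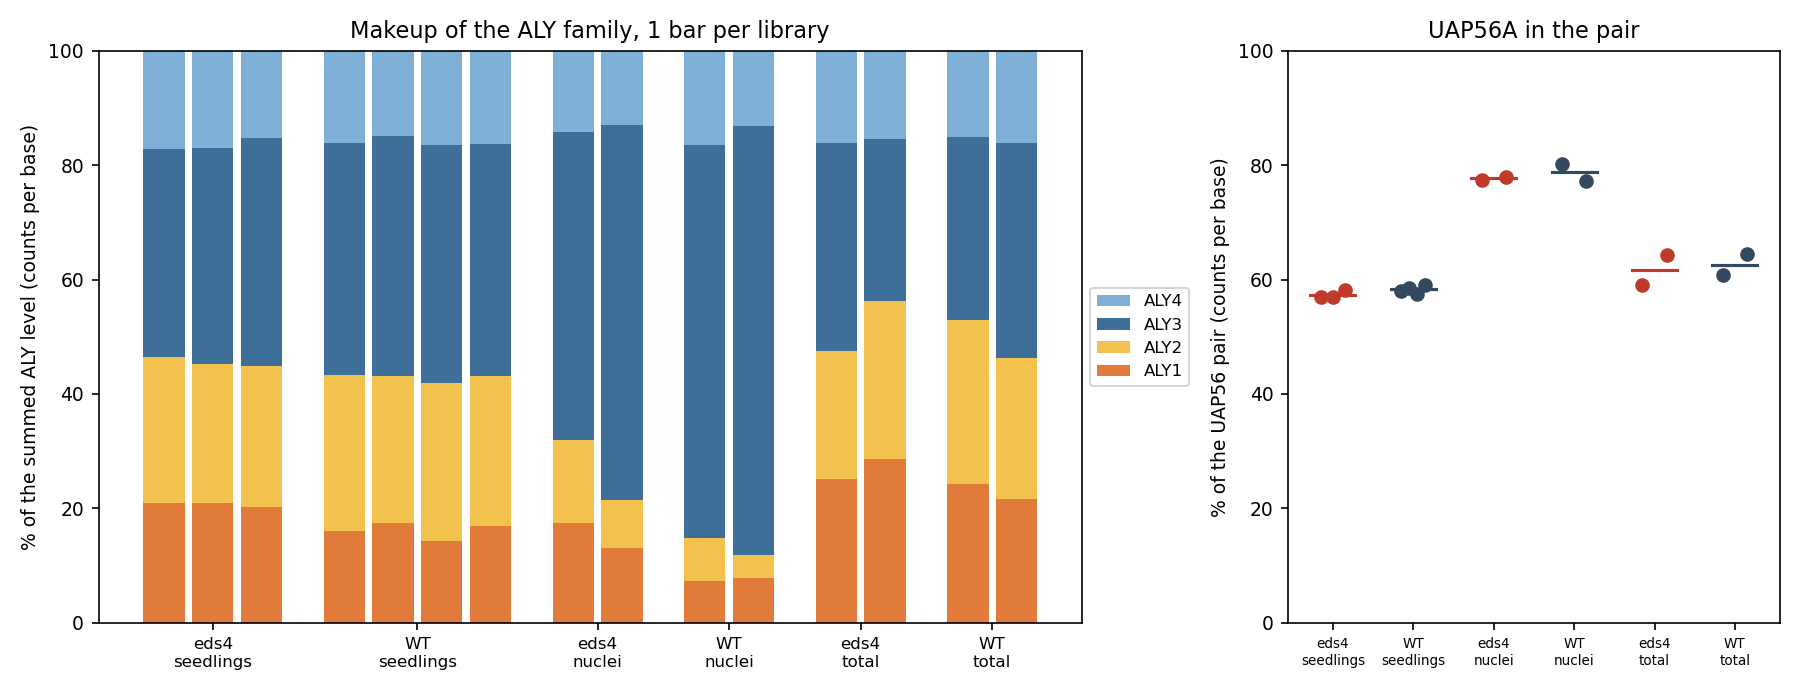
Left, share (percent) of each ALY gene in the summed ALY level, counts per base of effective length, in each library; right, share of UAP56A in the UAP56 pair, with points for libraries and lines for group means, eds4 in red and wild type (WT) in dark blue. ALY3 takes 53.8% to 74.9% of the family in nuclei and 28.4% to 37.5% in total RNA.

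Likeness of pattern was measured as the root mean square difference of log2 CPM across the 15 libraries, each gene centred on its own mean. HPR1 and THO2, both subunits of the THO core, were nearest to each other (0.14). TEX1 and UAP56B were nearest to each other (0.27), UAP56A lay nearest to HPR1 (0.26), ALY4 to HPR1 (0.32) and ALY3 to ALY4 (0.47). ALY2 lay nearest to ALY1 (0.48), ALY1 to HPR1 (0.46) and MOS11 to ALY3 (0.54). Of 17853 genes, those most like ALY1 were ETFBETA (AT5G43430, 0.184), AT4G40040 (0.184) and AT5G60820 (0.187). These distances share libraries and depth across genes and carry no test.

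Genes that work beside TREX were counted from 5 lists, which were chosen with earlier results of these data known. In eds4 seedlings against wild type seedlings 0 of 5 other THO subunits, 0 of 4 exon junction complex genes, 0 of 3 genes of the cap-binding complex and SERRATE, and 0 of 8 genes of TREX-2, which tethers transcription to the pore, passed. Of 7 genes of export at the pore 2 were higher, the mRNA export factor RAE1 (1.01, SE 0.08) and the exportin XPO1B (1.09, SE 0.09), both with an adjusted p of 0.00182 in edgeR's test. Over all genes tested in seedlings, 1.34% passed and 0.757% were higher. RAE1 was also higher in eds4 nuclei, with 62.4 ± 14.4 CPM against 19.2 ± 3.12 CPM in wild type nuclei (1.70, SE 0.27, adjusted p = 0.0420, edgeR). No other gene of the 5 lists passed there, where 0.363% of all genes did. None passed in total RNA, in the change of the ratio or between the experiments.

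Between nuclei and total RNA the neighbouring complexes moved both ways. The TREX-2 scaffolds SAC3B and SAC3A were higher in nuclei of both genotypes: by 2.13 and 2.21 in eds4 and by 2.25 and 1.81 in wild type, on the log2 scale. The small TREX-2 subunits DSS1(V) and DSS1(I) were lower, at -1.42 and -1.59 in eds4 and -0.97 and -1.10 in wild type; the other 4 of 8 TREX-2 genes did not pass in either genotype. Of 4 genes listed with the exon junction complex, which marks spliced mRNA, 3 were lower in eds4 nuclei (PYM -2.17, MAGO -1.43, EIF4A-III -1.07) and 2 in wild type nuclei (MAGO -1.82, EIF4A-III -1.57). SERRATE, which works in microRNA processing and splicing, was the gene of its list of 3 that passed, higher in nuclei by 0.91 in eds4 and by 0.75 in the wild type. Of 7 pore genes, GLE1 was higher (1.35 in eds4, 1.26 in wild type) and NUP96 lower (-1.51 in eds4, -1.67 in wild type), and XPO1B was higher in eds4 (0.82). Of 5 other THO subunits, 1 of the THO7 genes (AT3G02950) was lower in eds4 nuclei (-1.19) and 0 passed in wild type. All of these had an adjusted p under 0.05 in edgeR's test, against the shares of 29.6% of all genes in eds4 and 30.6% in wild type.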

How the data were processed

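Polyadenylated RNA of 15 libraries was sequenced in pairs on a HiSeq 1500, per the labels' protocols. The deposited files are 3 tables that give the authors' raw read counts for 33602 loci, with coordinates, length and effective length (an authors' value per locus, in bases); 0 columns belonged to other samples. TopHat2 2.1.1, SAMtools 1.3 and the build TAIR10 are named in the submitters' processing notes. For the counting program, its strand setting and its handling of multiply matching reads, no source used here gives a statement. Between replicates of a group the chi-square over loci was 11.41 to 122.2 times its degrees of freedom, so none was counted as a copy.

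Counts were tested as deposited with edgeR 4.0.16 in R 4.3.3: filterByExpr by group, TMM, quasi-likelihood F test, Benjamini-Hochberg adjustment over all genes tested, threshold 0.05. The 7 profiling libraries were fitted alone, the 8 distribution libraries together with a mean per group, and the 11 whole-seedling libraries for the comparison between experiments. Standard errors came from the log2 difference and its F statistic. Likeness used log2 CPM with a prior count of 2 and genes with an average log2 CPM of at least 1. The fits were tested on simulated data. Alternatives were DESeq2 1.42.0, other size factors, no filter, leaving out each library, other sets of libraries and the replicate number as a block.

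Named were the 10 genes, EDS4, the 3 genes most like ALY1, and from each list at most 4 genes that passed, by smallest adjusted p. The genes and lists were chosen with earlier results of these data known. A list of UIEF adaptors was dropped because the reference gene table does not give its genes those names. Sequences and coding identity were read from RefSeq TAIR10.1; protein and promoter sequences were not used here.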

Additional observations from a re-analysis of the deposited data

How the results depend on the processing

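The number of the 10 genes that passed changed by over 1.5 times in these alternatives. In eds4 seedlings against wild type seedlings (1 passed) it was 2 with DESeq2, 0 in the fit of all 11 whole-seedling libraries and 0 with any library left out. In eds4 nuclei against wild type nuclei (0 passed) it was 1 without the filter on low counts. In wild type nuclei against total RNA (5 passed) leaving out a library gave 2 to 5. In eds4 nuclei against total RNA (4 passed) it gave 1 to 2, and the fit of only the 4 libraries compared gave 2. Leaving out libraries leaves fewer of them for the estimate of spread; otherwise the cause was not tested.

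The calls among the 10 genes and EDS4 kept their direction in every alternative run; genes of the 5 neighbouring lists were run in no alternative. The replicate numbers were not taken as pairs, since the labels tie them to nothing shared. Deviations of same-numbered seedling libraries correlated at 0.395, -0.094 and 0.378 for replicates 1 to 3, and what they share was not tested. Between groups of the distribution experiment, with 2 numbers each, deviations correlated at -0.0295 to 0.238, too few numbers to show pairing or its absence. Seedling libraries were also unequally alike. Chi-square per degree of freedom was 11.41 between eds4 replicates 1 and 2, but 63.75 and 58.09 between these and replicate 3. In wild type it was 22.42 for replicates 1 and 2 and 18.59 for 3 and 4, against 24.58 to 54.29 across these sets. The main seedling fit held no term for such sets. The replicate block gave 414 genes in eds4 seedlings against wild type seedlings (297 without it) and 248 in eds4 nuclei against wild type nuclei (78 without it), and left the number of the 10 genes that passed within 1.5 times in every comparison. With the block, ALY1 had a log2 difference of 0.55 in seedlings (adjusted p = 0.0453). With replicates 1 and 2 alone ALY1 had 0.46 (adjusted p = 0.0468), and with a term for replicates 1 and 2 against 3 and 4 it had 0.50 (adjusted p = 0.0208).

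The number of all genes called varied more. In seedlings it was 1011 with DESeq2, 868 with the term for replicate sets, 525 with replicates 1 and 2 alone, 88 with all 11 libraries and 42 to 462 with a library left out. Between genotypes in nuclei it was 826 with DESeq2, 1167 without the filter, 32 with relative log expression size factors, 36 with library sizes from nuclear-encoded loci, 3 with only the 4 libraries compared and 1 to 181 with a library left out. In total RNA between genotypes it was 16 with DESeq2, 95 without the filter and 144 with all 11 libraries. For the change of the ratio it was 39 with DESeq2 and 226 without the filter, and between the experiments 210 with DESeq2, 15 without the filter and 2 to 28 with a library left out. In nuclei against total RNA a library left out gave 3729 to 5602 genes in eds4 (6357 with all) and 3418 to 5605 in wild type (6582 with all). DESeq2 also moved the median of all genes to -0.108 between genotypes in nuclei and to -0.128 in the change of the ratio.

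Differences near 0 that did not pass changed sign. In seedlings TEX1 was 0.0558 with the replicate block, and with replicates 1 and 2 alone ALY3 was -0.0228, HPR1 -0.0540 and TEX1 0.178. HPR1 in total RNA was 0.00625 with relative log expression size factors, 0.0178 with sizes from nuclear-encoded loci, 0.00641 with DESeq2, 0.0163 with all 11 libraries and 0.0164 with 4. Between genotypes in nuclei HPR1 was -0.0261 with relative log expression, -0.00947 with nuclear-encoded sizes and -0.0256 with DESeq2. In the change of the ratio these 3 settings gave -0.0428, -0.0378 and -0.0425 for THO2 and -0.0323, -0.0273 and -0.0320 for HPR1. Between the experiments TEX1 was 0.00601 with the replicate block. The cause was not tested.

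With a library left out, signs also changed over these ranges. In seedlings they were -0.0392 to 0.0787 for ALY3, -0.0262 to 0.108 for HPR1 and -0.0523 to 0.0808 for TEX1. In total RNA between genotypes they were -0.27 to 0.46 (ALY3), -0.00493 to 0.44 (ALY4), -0.0203 to 0.00942 (HPR1), -0.36 to 0.35 (MOS11), -0.19 to 0.26 (TEX1) and -0.0509 to 0.265 (UAP56A). In nuclei between genotypes they were -0.15 to 0.22 (HPR1), -0.40 to 0.12 (THO2) and -0.10 to 0.27 (EDS4). In nuclei against total RNA they were -0.19 to 0.00691 (ALY1 in eds4), -0.52 to 0.18 (TEX1 in eds4) and -0.14 to 0.20 (UAP56B in wild type). In the change of the ratio they were -0.16 to 0.23 (HPR1) and -0.24 to 0.30 (THO2). Between the experiments they were -0.0719 to 0.148 (ALY1), -0.47 to 0.29 (ALY3), -0.29 to 0.18 (ALY4), -0.0466 to 0.0908 (HPR1), -0.29 to 0.41 (MOS11), -0.29 to 0.16 (TEX1), -0.0794 to 0.158 (THO2) and -0.0420 to 0.247 (UAP56A).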
